A study of Mus musculus with 12 samples.

Results

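The 10 genes Pecam1, Cdh5, Cldn5, Esam, Kdr, Flt1, Sox17, Emcn, Egfl7 and Fabp4 are markers of endothelial cells, the cells that line blood vessels. They were found by an exact match of the gene name among 55335 genes of the count files, and each name matched a single gene. The members were chosen from group differences already seen in these same libraries, so their values are given as a description with no p-value. RNA was sequenced from mouse muscle stem cells (MuSCs) to compare cells under apical compression with freshly isolated and uncompressed cells. MuSCs were sorted from the hindlimb muscle of adult Pax7-ZsGreen mice, in which the green fluorescent protein ZsGreen is driven by Pax7, and the gate used this fluorescence alone. The 12 libraries form 4 groups of 3. F cells (replicates 1, 4 and 5) were lysed as they were sorted. 2d-U cells (replicates 1, 2 and 3) were cultured for 2 days, and 5d-U cells (replicates 1, 2 and 6) for 5 days, on a plastic dish coated with Matrigel and fibronectin in growth medium, without compression. 2+3d-C cells (replicates 4, 5 and 10) were cultured for 2 days in the same way and then for 3 days under a PDMS device with pillars that limits cell height. All groups share the transgenic strain and the sort. Neither the labels nor the methods say which libraries come from the same batch of sorted cells, so p-values measure only the spread between these samples.

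Endothelial cells form the capillaries that run along each myofiber, and MuSCs lie between the myofiber and its basement membrane, often close to a capillary. Endothelial cells are held together by adherens and tight junctions, respond to vascular endothelial growth factor (VEGF) through receptor tyrosine kinases, and depend on transcription factors of the ETS and SOX families. Muscle capillaries also take up fatty acids, for which they carry binding and transport proteins. MuSCs are known to secrete VEGF. In a bulk library, fewer cells of a type and less RNA per cell cannot be told apart.

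The reads on genes summed to 12540745 in the shallowest and 62424851 in the deepest library, and 3 reads correspond to 0.0481 to 0.239 CPM, counts scaled to the library total. The MuSC markers Pax7, Myf5 and Myod1 had reads in every library. Reads on 2106 autosomal genes of families that are silent in muscle (keratin-associated proteins, alpha-defensins, and the taste, vomeronasal and olfactory receptors) were used as a measure of reads from outside expressed genes. Their density was 5.03 and 7.13 reads per kb in F replicates 4 and 5, 3.81 in 5d-U replicate 1 and 0.634 in 5d-U replicate 6, and it was between 0.00936 and 0.220 in the other 8 libraries. Levels are given as RPKM, the reads per kb of exon divided by the TMM-scaled library size.

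The tables of promoter sequence at hand held a window for 5 of the 10 members. The 250 bases upstream of the start site are shown for the VEGF receptors Flt1 and Kdr and for the surface proteins Emcn and Cldn5, since the first pair and the second pair behaved differently among the compressed libraries described further on. They are from RefSeq, build GRCm38.p6, printed in the direction of transcription, at chr5:147726012-147726261 (minus strand), chr5:75978456-75978705 (minus strand), chr3:137340828-137341077 (plus strand) and chr16:18776597-18776846 (plus strand). Capitals mark AGGAAG on either strand, a core recognised by ETS factors.
Flt1: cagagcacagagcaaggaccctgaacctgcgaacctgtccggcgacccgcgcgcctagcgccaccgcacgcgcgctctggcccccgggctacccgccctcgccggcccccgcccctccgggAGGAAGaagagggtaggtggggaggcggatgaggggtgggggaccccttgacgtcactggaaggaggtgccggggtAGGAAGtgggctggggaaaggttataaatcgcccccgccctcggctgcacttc
Kdr: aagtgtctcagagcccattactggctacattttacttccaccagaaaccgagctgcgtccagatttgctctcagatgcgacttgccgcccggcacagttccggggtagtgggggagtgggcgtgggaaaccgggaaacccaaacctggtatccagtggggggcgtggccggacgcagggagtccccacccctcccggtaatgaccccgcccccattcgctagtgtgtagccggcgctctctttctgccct
Emcn: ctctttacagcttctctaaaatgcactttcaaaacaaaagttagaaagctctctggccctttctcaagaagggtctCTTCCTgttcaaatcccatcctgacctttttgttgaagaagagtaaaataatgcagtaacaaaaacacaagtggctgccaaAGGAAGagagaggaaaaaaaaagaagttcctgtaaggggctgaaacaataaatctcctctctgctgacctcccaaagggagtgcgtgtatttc
Cldn5: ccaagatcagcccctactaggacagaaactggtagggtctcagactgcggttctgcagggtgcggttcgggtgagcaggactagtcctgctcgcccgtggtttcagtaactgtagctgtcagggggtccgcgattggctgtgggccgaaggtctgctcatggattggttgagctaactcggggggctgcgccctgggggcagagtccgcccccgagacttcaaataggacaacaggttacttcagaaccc
AGGAAG occurred 2 times in the Flt1 window and 2 times in the Emcn window, and did not occur in the windows of Kdr and Cldn5. A longer ETS motif, CCGGAAG, matched 0 of the 5 members with a window, and AGGAAG, which was chosen after the sequences were seen, matched 3 of 5, the third being Egfl7. In all 32851 promoter windows of this length, 6.91% held CCGGAAG and 29.5% held AGGAAG. The GATA motif AGATAA matched 0 of 5 members (9.99% of all windows), the SOX motif ACAAAG matched 1 (16.5%) and the KLF motif CACCC matched 4 (52%). Egfl7 has 3 windows, and a member counted if any of its windows matched, while the shares of all windows are per window. Per window of the members, AGGAAG matched 4 of 7, ACAAAG 1 of 7, CACCC 4 of 7, and CCGGAAG and AGATAA 0 of 7. CCGGAAG and AGGAAG share the letters GGAAG, and a match or its absence is a property of these letters alone.

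All 10 members were highest in F cells, low or undetected in uncompressed culture and intermediate in compressed cells. Their summed level was 553, 490 and 618 RPKM in F replicates 1, 4 and 5. It was 2.98, 3.77 and 3.92 RPKM in 2d-U replicates 1, 2 and 3, and 11.01, 2.02 and 4.80 RPKM in 5d-U replicates 1, 2 and 6. It was 110, 216 and 71.4 RPKM in 2+3d-C replicates 4, 5 and 10, which is 19.9, 39.1 and 12.9% of the F mean. The 3 groups of levels, F, 2+3d-C and the uncompressed libraries together, did not overlap in this sum.

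**Figure D1:**
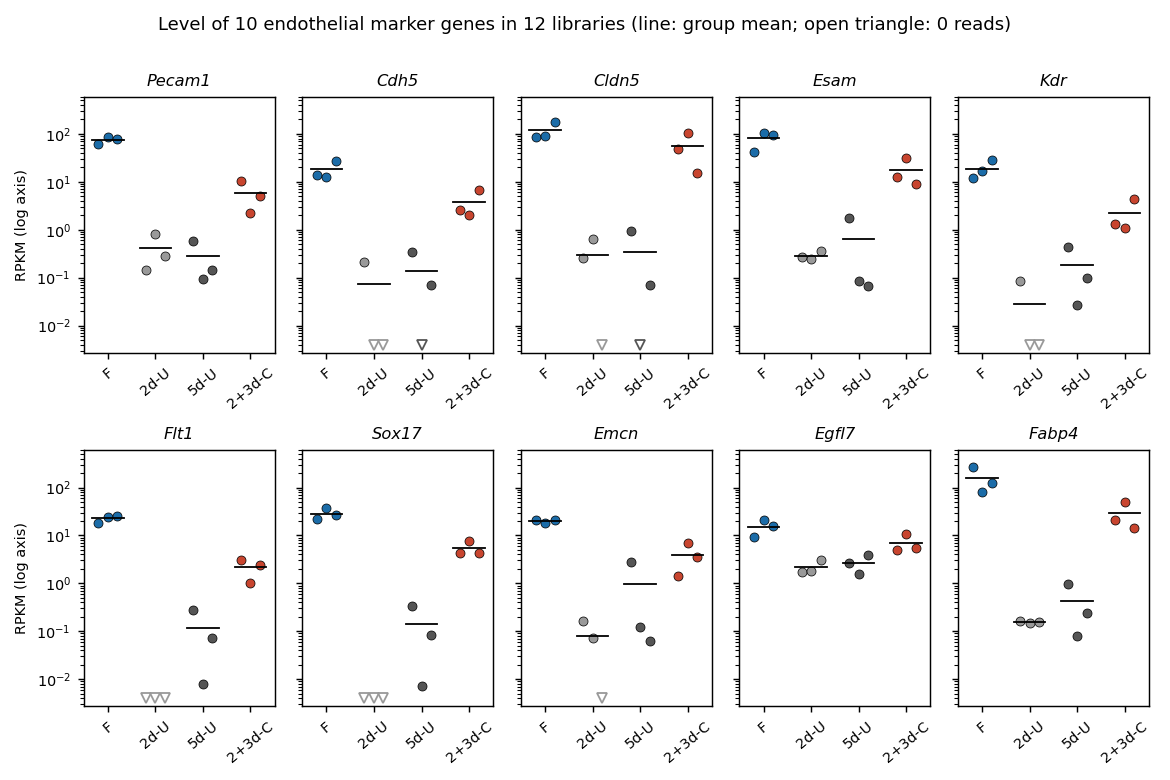
Level of each of the 10 members in RPKM, on a log axis, in the 12 libraries, with 1 point per library, a line at the group mean and an open triangle at the lower edge for a library with 0 reads. In each panel the F libraries lie above all 6 uncompressed libraries, and the 2+3d-C libraries lie between them in 7 panels. The exceptions are Emcn, where 5d-U replicate 1 (2.74 RPKM) lies above 2+3d-C replicate 4 (1.44 RPKM), and Cldn5 and Egfl7, where 2+3d-C replicate 5 reaches into the F libraries.

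Pecam1 (chromosome 11, 106654217 to 106750628, minus strand) encodes an adhesion molecule at the contacts between endothelial cells. Its level was 63.0, 84.4 and 77.7 RPKM in the F libraries, 0.143, 0.824 and 0.288 in those of 2d-U, 0.594, 0.0952 and 0.141 in those of 5d-U and 10.2, 2.27 and 5.04 in those of 2+3d-C. The 2+3d-C libraries were thus all above the uncompressed and all below the F libraries, with a mean of 5.85 ± 4.04 RPKM (SD, n = 3) against 75.03 ± 10.97 (SD, n = 3) in F. At 7.79% of the F mean, Pecam1 was the member with the lowest recovered share. In 2+3d-C it differed from 5d-U by 4.41 (SE 0.828) on the log2 scale, and it fell by 3.68 (SE 0.790) from F.

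Cdh5 (chromosome 8, 104101625 to 104144511, plus strand) encodes VE-cadherin, the cadherin of endothelial adherens junctions. Its level was 14.01, 12.9 and 27.5 RPKM in the F libraries, 0.216, 0 and 0 in those of 2d-U, 0.342, 0 and 0.0698 in those of 5d-U and 2.60, 2.07 and 6.68 in those of 2+3d-C. The F libraries did not overlap with any other group, and 2d-U replicate 1 held all 48 reads of its group. The 2+3d-C mean of 3.78 ± 2.52 RPKM (SD, n = 3) was 20.8% of the F mean.

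Cldn5 (chromosome 16, 18776847 to 18778262, plus strand) encodes the main claudin of endothelial tight junctions. It had 86.4, 90.3 and 177 RPKM in the F libraries, 0.254, 0.636 and 0 in those of 2d-U, 0.952, 0 and 0.0691 in those of 5d-U and 48.1, 103 and 15.7 in those of 2+3d-C. Here 2+3d-C overlapped with F, since its replicate 5 was above F replicates 1 and 4. The 2+3d-C mean was 55.4 ± 43.9 RPKM (SD, n = 3), or 47.0% of the F mean, with a range of 6.55-fold among the 3 libraries. Cldn5 had the highest level of the members in every 2+3d-C library and the largest log2 fold change of the members against 5d-U, 7.35 (SE 1.45).

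Esam (chromosome 9, 37528078 to 37538319, plus strand) encodes an adhesion molecule of endothelial tight junctions. It had 42.3, 106 and 92.9 RPKM in the F libraries, 0.264, 0.246 and 0.356 in those of 2d-U, 1.76, 0.0852 and 0.0682 in those of 5d-U and 12.9, 31.5 and 9.13 in those of 2+3d-C. The order F, 2+3d-C, uncompressed held without overlap, and the 2+3d-C mean was 22.2% of the F mean.

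Kdr (chromosome 5, 75932827 to 75978458, minus strand) encodes VEGF receptor 2, the main signalling receptor for VEGF-A, and Flt1 (chromosome 5, 147561604 to 147726011, minus strand) encodes VEGF receptor 1, which binds VEGF-A, VEGF-B and placental growth factor. Kdr had 12.1, 16.7 and 28.1 RPKM in the F libraries, 0.0837, 0 and 0 in those of 2d-U, 0.438, 0.0271 and 0.0975 in those of 5d-U and 1.33, 1.11 and 4.41 in those of 2+3d-C. Flt1 had 18.5, 24.2 and 25.0 RPKM in the F libraries, 0.277, 0.00775 and 0.0724 in those of 5d-U and 3.08, 0.993 and 2.45 in those of 2+3d-C. It had 0 reads in all 3 libraries of 2d-U. Both receptors were ordered F, 2+3d-C, uncompressed without overlap. Set against 3 reads in each 2d-U library, Flt1 was at least 3797-fold higher in F and at least 366-fold higher in 2+3d-C. The 2+3d-C mean was 12.1% of the F mean for Kdr and 9.65% for Flt1, which with Pecam1 were the lowest shares of the 10 members.

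Sox17 (chromosome 1, 4490931 to 4497354, minus strand) encodes a transcription factor of arterial endothelium. It had 22.2, 37.0 and 26.8 RPKM in the F libraries, 0.337, 0.00731 and 0.0820 in 5d-U, 4.21, 7.64 and 4.37 in those of 2+3d-C, and 0 reads in the 3 libraries of 2d-U. The groups did not overlap, and the 3 compressed libraries differed by 1.82-fold, the narrowest range of the members in this group. Against 3 reads in each 2d-U library, it was at least 1705-fold higher in F and at least 322-fold higher in 2+3d-C. Of its exon bases, 16.9% are shared with Gm37587 on the opposite strand, and counting did not use strand.

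Emcn (chromosome 3, 137341067 to 137432185, plus strand) encodes endomucin, a sialoglycoprotein of capillary and venous endothelium. It had 21.4, 18.5 and 20.7 RPKM in the F libraries, 0.161, 0.0724 and 0 in those of 2d-U, 2.74, 0.123 and 0.0633 in those of 5d-U and 1.44, 6.88 and 3.62 in those of 2+3d-C. The F libraries were close to each other, and 5d-U overlapped with 2+3d-C through replicate 1 alone, which had 341 reads. The 2+3d-C mean was 19.7% of the F mean.

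Egfl7 (chromosome 2, 26580014 to 26593120, plus strand) encodes a secreted factor of endothelial cells and hosts the microRNA miR-126. It had 9.36, 20.8 and 15.8 RPKM in the F libraries, 1.70, 1.84 and 3.12 in those of 2d-U, 2.60, 1.598 and 3.89 in those of 5d-U and 4.90, 10.7 and 5.51 in those of 2+3d-C. It was the member with the most reads in each of the 6 uncompressed libraries except 5d-U replicate 1, and its 2+3d-C replicate 5 was above F replicate 1. Its log2 fold change was the smallest of the members in F against 2d-U, 2.79 (SE 0.570), and in F against 5d-U, 2.51 (SE 0.564). Of its exon bases, 11.2% are shared with Gm20532, Mir126a, Mir126b and Agpat2.

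Fabp4 (chromosome 3, 10204088 to 10208576, minus strand) encodes a fatty acid binding protein of capillary endothelium that is also abundant in adipocytes. It had 264, 78.8 and 126 RPKM in the F libraries, 0.164, 0.148 and 0.153 in those of 2d-U, 0.969, 0.0777 and 0.240 in those of 5d-U and 21.3, 50.5 and 14.5 in those of 2+3d-C. F replicate 1 stood above the other two, and the groups did not overlap. The 2+3d-C mean of 28.8 ± 19.1 RPKM (SD, n = 3) was 18.4% of the F mean. The adipocyte marker Adipoq had 0 to 42 reads in every library.

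In counts of members, every F library was above every uncompressed library for 10 of 10, as for 20.6% of all 22635 genes tested. Every 2+3d-C library was above every uncompressed library for 9 of 10 (11.1% of all genes), with Emcn as the exception. Every F library was above every 2+3d-C library for 8 of 10 (18.3% of all genes), with Cldn5 and Egfl7 as the exceptions. The whole order F, 2+3d-C, uncompressed held for 7 of 10 (1.13% of all genes). These shares were part of what chose the members, so nothing is read from them.

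The members did not move as 1 unit within the compressed libraries. Among the 10 genes, 6 (Cldn5, Esam, Sox17, Emcn, Egfl7 and Fabp4) were highest in 2+3d-C replicate 5, and the other 4 (Pecam1, Cdh5, Kdr and Flt1) were lowest in that same library. Relative to the F mean, replicate 5 held 86.9% of Cldn5 and 69.7% of Egfl7 but 3.02% of Pecam1 and 4.402% of Flt1. In replicate 4 the members ranged from 7.03% (Kdr) to 40.8% (Cldn5) of the F mean with a median of 13.99%, and in replicate 10 from 6.72% (Pecam1) to 36.8% (Cdh5) with a median of 14.3%. In replicate 5 the median was 29.5%. Replicate 5 has the fewest reads of the 12 libraries, 12540745. The 4 genes that were low there have exon lengths of 4203 to 13504 bases and the 6 that were high 1416 to 5409 bases. The part of depth and of gene length in this split was not tested.

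**Figure D2:**
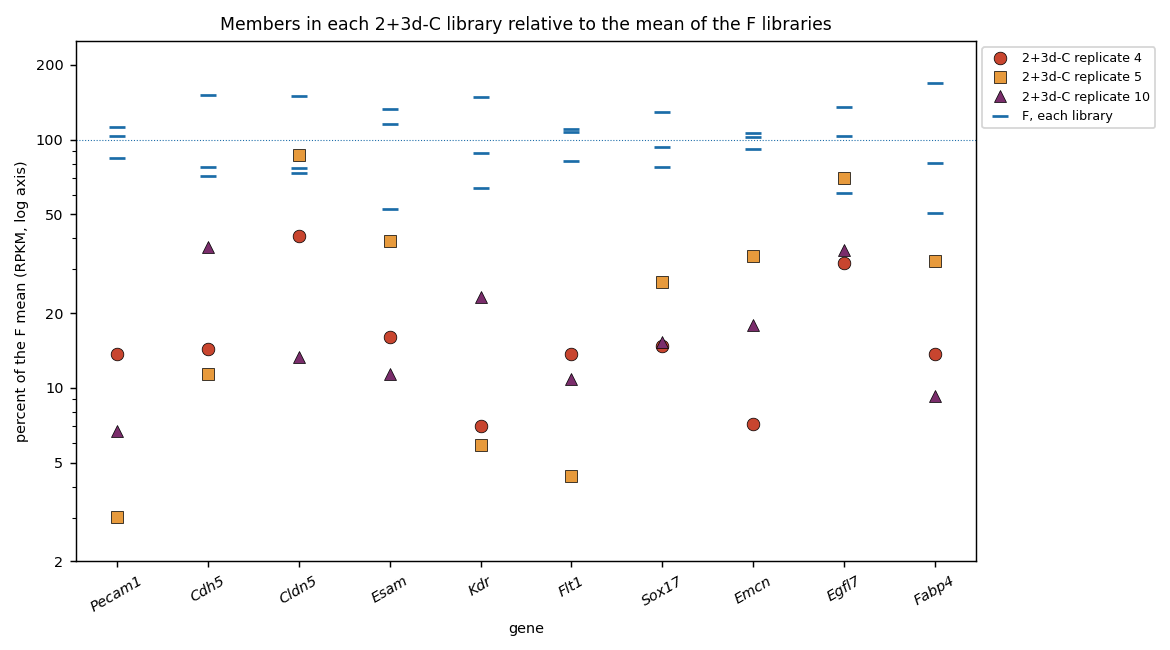
Level of each member in the 3 libraries of 2+3d-C as a percent of the mean of the 3 F libraries, on a log axis, with the F libraries as horizontal marks. The square of replicate 5 is the highest of the 3 symbols for 6 genes and the lowest for Pecam1, Cdh5, Kdr and Flt1, and for Cldn5 and Egfl7 it lies among the marks of F.

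The make-up of the summed level also differed between groups. Fabp4 gave 47.7% of the sum in F replicate 1, 16.1% in replicate 4 and 20.4% in replicate 5, and Cldn5 gave 15.6, 18.4 and 28.7%. In 2+3d-C, Cldn5 gave 43.7, 47.4 and 21.9% of the sum and Fabp4 19.3, 23.4 and 20.3%. Across the 10 genes, the log2 level in each compressed library correlated with the log2 F mean at r = 0.896, 0.706 and 0.772 in replicates 4, 5 and 10. These are correlations across genes, which are not independent replicates, and all 3 use the same F mean.

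In uncompressed culture, most members were close to the limit of detection, while Egfl7 was at 10.4 to 25.4% of its F mean. Egfl7 gave 57.0, 48.8 and 79.7% of the summed level in 2d-U replicates 1, 2 and 3. In 5d-U replicates 1, 2 and 6 it gave 23.6, 79.1 and 81.2%. There were 0 reads for 2, 4 and 6 of the 10 members in 2d-U replicates 1, 2 and 3. In 5d-U, replicate 1 was the highest library for 9 of 10 members, all but Egfl7, and it had 1134 reads on the 10 genes together. From the density on silent gene families, 212 reads were expected on these genes in that library. In 5d-U replicate 6 there were 390 reads with 35.2 expected, and in replicate 2 there were 228 with 3.25 expected. In F replicates 4 and 5, which have the highest such density, 279 and 396 of 68315 and 101586 member reads were expected, so the density is small beside the F levels.

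Across all tested genes, edgeR's quasi-likelihood test at an adjusted p-value under 0.05 called 10 of 10 members higher in F than in 2d-U (33.3% of all tested genes) and 10 of 10 higher in F than in 5d-U (8.9%). Against 2d-U, 10 of 10 were called higher in 2+3d-C (16.0%), and against 5d-U 8 of 10 (9.14%), all but Emcn and Egfl7. Against F, 2 of 10, Pecam1 and Flt1, were called lower in 2+3d-C (4.47%), and between 5d-U and 2d-U 2 of 10, Flt1 and Sox17, were called higher in 5d-U (1.87%). The members were chosen from these same contrasts, so the calls describe them and nothing is read from their counts. The median log2 fold change of the members was 4.60 in 2+3d-C against 5d-U, where that of all tested genes was -1.05, and -2.38 against F, where that of all tested genes was -0.76. Scaling by library size without TMM moved the latter median to -1.24. With a term in the model for the 4 libraries richest in silent-family reads, the calls of 2+3d-C against F and of 5d-U against 2d-U both ended at 0 (3 members lower and 2 higher at an unadjusted p under 0.05), and the latter count was also 0 with the reads expected from silent families subtracted (3 higher at an unadjusted p under 0.05). The count against F also rests on single libraries. It was 0 without F replicate 4, F replicate 5 or 2+3d-C replicate 5 (5, 4 and 8 members lower at an unadjusted p under 0.05), 1 without 2+3d-C replicate 10, 4 without 5d-U replicate 2, and 5 without F replicate 1 or 5d-U replicate 1.

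Other endothelial genes were taken from a list of 40 further markers that holds none of the 10 members and was written with results of these libraries known. Its counts and p-values therefore describe these libraries and are no independent support for the members. Rasip1, Eng, Tinagl1 and Gpihbp1 are named below because their p was among the smallest, so their p-values are selected. In F, 39 of 40 rose against 2d-U and 33 of 40 against 5d-U (edgeR, adjusted p-value under 0.05), beside 33.3 and 8.9% of all tested genes. None was called lower in either, also at an unadjusted p under 0.05. In 2+3d-C, 31 of 40 rose against 2d-U and 24 of 40 against 5d-U, beside 16.0 and 9.14% of all tested genes. Against F, 6 of 40 fell (4.47% of all tested genes), and none was called higher at an adjusted or an unadjusted p under 0.05. Between 5d-U and 2d-U, 6 of 40 were higher in 5d-U (1.87% of all tested genes). The median log2 fold change of the list was 3.74 for 2+3d-C over 5d-U, where that of all tested genes was -1.05. For 2+3d-C over F it was -2.57, where that of all tested genes was -0.76. Every F library was above every uncompressed library for 40 of 40 genes (20.6% of all tested genes). Every 2+3d-C library was above every uncompressed library for 23 of 40 (11.1%), and every F library was above every 2+3d-C library for 36 of 40 (18.3%). Their summed level in 2+3d-C replicates 4, 5 and 10 was 23.6, 20.7 and 20.3% of the F mean, a narrower range than that of the 10 members. The fall against F was called for none of the 40 genes without F replicate 4 or F replicate 5 (22 and 21 lower at an unadjusted p under 0.05), for 2 without 2+3d-C replicate 5, for 3 without 2+3d-C replicate 10, for 10 without 2d-U replicate 3, for 12 without 5d-U replicate 1 or 5d-U replicate 2, and for 19 without F replicate 1.

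**Figure D3:**
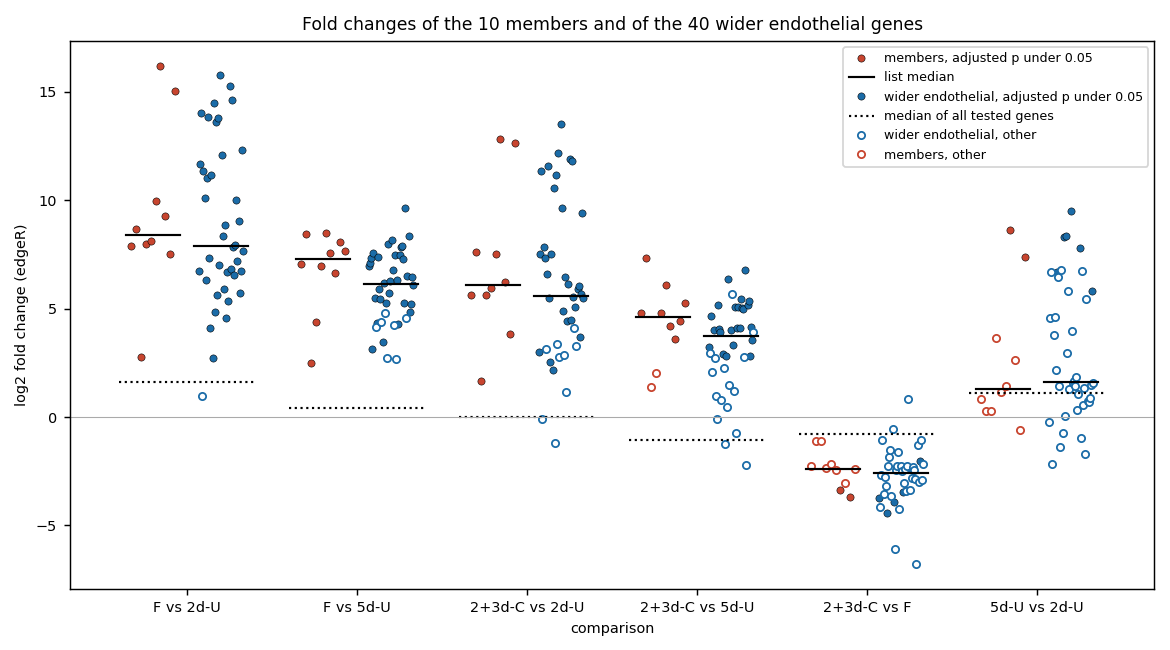
Log2 fold changes from edgeR of the 10 members and of the 40 wider endothelial genes in 6 comparisons, with filled points for an adjusted p-value under 0.05, a solid line at each list's median and a dotted line at the median of all tested genes. Both medians lie above the dotted line in the 4 comparisons of F or 2+3d-C with uncompressed cells and below it in 2+3d-C against F, and the fitted values of genes with 0 reads in 2d-U, such as Flt1 and Sox17, depend on the prior count.

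Plvap, which forms the diaphragms of endothelial fenestrae and caveolae, had the highest mean level of the wider list. It had 199, 376 and 263 RPKM in the F libraries, 8.47, 0.527 and 1.33 in those of 5d-U and 50.7, 70.1 and 54.3 in those of 2+3d-C. It rose in 2+3d-C against 5d-U by 4.08 on the log2 scale (SE 0.806, edgeR adjusted p = 0.00256). Cd36, a fatty acid translocase of capillaries that adipocytes and macrophages also carry, had 375, 154 and 157 RPKM in F and 21.2, 18.9 and 19.0 in those of 2+3d-C, against 0.233 to 3.04 in 5d-U (log2 fold change 4.03 against 5d-U, SE 1.25, edgeR adjusted p = 0.0320). Both genes were higher in each compressed library than in every uncompressed library.

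Ly6c1, a surface protein of endothelial cells and of some leukocytes, had 0 reads in 2d-U, 0.208 to 3.88 RPKM in 5d-U and 16.7, 48.7 and 18.0 RPKM in 2+3d-C, and rose by 4.02 on the log2 scale against 5d-U (SE 0.850, edgeR adjusted p = 0.00515). S1pr1, the receptor for sphingosine 1-phosphate that stabilises vessels, had 104, 136 and 136 RPKM in F and 32.8, 18.8 and 23.9 in those of 2+3d-C, with a log2 fold change of 4.97 against 5d-U (SE 1.08, edgeR adjusted p = 0.00450). Rasip1, which is needed for the formation of vessel lumens, had the smallest p of the list for F as well as for 2+3d-C against 5d-U. Its level was 26.7, 90.5 and 77.5 RPKM in the F libraries, 0.380, 0.153 and 0.321 in 5d-U and 15.8, 9.17 and 12.1 in those of 2+3d-C. In 2+3d-C it rose by 5.44 on the log2 scale from 5d-U (SE 0.589, edgeR adjusted p = 3.32e-05), and it fell by 2.39 from F (SE 0.504, edgeR adjusted p = 0.0182). Of the exon bases of Rasip1, 42.9% are shared with Izumo1 on the same strand and Gm45437 and A030001D20Rik on the opposite strand.

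Eng, a co-receptor for TGF-beta family ligands, and Tinagl1, a secreted matrix protein, also rose in 2+3d-C against 5d-U, by 3.93 (SE 0.590, edgeR adjusted p = 0.000389) and 2.84 (SE 0.541, edgeR adjusted p = 0.00206) on the log2 scale. Gpihbp1, which holds lipoprotein lipase on the capillary surface, had 5.36, 10.6 and 6.21 RPKM in 2+3d-C and at most 0.170 RPKM in 5d-U, with a log2 fold change of 6.39 (SE 0.988, edgeR adjusted p = 0.000785). Not all of the list is particular to endothelium. Ets1, a transcription factor of many cell types, averaged 9.74 RPKM in 2d-U against 5.86 RPKM in 5d-U. Its 2+3d-C mean of 43.3 RPKM was 67.4% of the F mean, with a log2 fold change of 2.88 over 5d-U (SE 0.530, edgeR adjusted p = 0.00159). Cd34, which quiescent MuSCs also express, had 29.0, 27.6 and 31.7 RPKM in 2d-U and 28.9, 21.0 and 32.9 in those of 2+3d-C, and its log2 fold change of 2.07 against 5d-U (SE 0.977) had an edgeR adjusted p of 0.117. Prox1, a transcription factor of lymphatic endothelium that was singled out after its values were seen, was the gene of the wider list whose 2+3d-C mean was above the F mean, at 175%, with 15.6, 2.26 and 6.08 RPKM in 2+3d-C and 8.42, 1.25 and 3.97 in F.

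Of 8 ligands of the VEGF, angiopoietin and apelin families, 1 rose and 2 fell in 2+3d-C against 5d-U (edgeR, adjusted p-value under 0.05). In F against 5d-U, 2 rose and 2 fell. Of all tested genes, 9.14% rose in 2+3d-C and 8.9% in F against 5d-U, and nothing is read from counts of so few ligands. Vegfa, the main ligand of Kdr, had 57.3, 37.8 and 39.1 RPKM in the F libraries, 30.5, 28.7 and 37.9 in those of 2d-U, 13.6, 16.4 and 9.78 in those of 5d-U and 119, 37.8 and 59.8 in those of 2+3d-C. It rose in 2+3d-C against 5d-U by 2.45 on the log2 scale (SE 0.455, edgeR adjusted p = 0.00174), while its difference from F, 0.69 (SE 0.433), had an edgeR adjusted p of 0.260. Unlike the receptors, the ligand was thus present at 9.78 RPKM or more in every library.

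Vegfb, a ligand of Flt1, had 2.67, 6.63 and 4.56 RPKM in the F libraries, 31.9, 28.3 and 30.7 in those of 2d-U, 19.7, 27.7 and 32.5 in those of 5d-U and 1.83, 4.74 and 3.19 in those of 2+3d-C. It fell by 3.04 on the log2 scale in 2+3d-C against 5d-U (SE 0.540, edgeR adjusted p = 0.00127), and 2+3d-C replicates 5 and 10 lay in the range of F while replicate 4 lay below it. Pgf, placental growth factor, had 1.94, 0.166 and 61.8 RPKM in 2+3d-C and 16.4 to 32.3 in 5d-U, and its log2 fold change of -0.21 (SE 1.13) had an edgeR adjusted p of 0.896. Its compressed libraries thus spread over the whole range of the other groups. Apln, the ligand of the apelin receptor, had 0 reads in all 3 libraries of 2+3d-C and 3.03, 8.55 and 4.05 RPKM in 5d-U.

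Markers of several other cell types of muscle, though not of all, were also higher in F and in compressed than in uncompressed cells, and their part in the result was not tested. The summed level of 6 erythroid genes, which include Hbb-bs, Hba-a1 and Hba-a2, was 42.5 to 189.5% of its F mean in F, at most 0.124% in the uncompressed libraries, and 28.0, 90.6 and 7.15% in 2+3d-C replicates 4, 5 and 10. The order of the compressed libraries, 5, 4 and 10, was the same as for the summed level of the members. It was not that of the wider endothelial list, which was at 23.6, 20.7 and 20.3% in replicates 4, 5 and 10. Pecam1, Cdh5, Kdr and Flt1 were lowest in replicate 5, and no such order was tested. Of the 10 immune genes, led by Lyz2, Cd14 and Tyrobp, the summed level was 8.58, 21.4 and 2.37% of the F mean in 2+3d-C replicates 4, 5 and 10. It was again highest in replicate 5 and lowest in replicate 10. The defining immune marker Ptprc had 0 reads in every library of 2+3d-C and of 2d-U, and Adgre1 and Cd3e had 0 reads in 2+3d-C. In 5d-U replicate 1 the immune sum was 16.1% of the F mean.

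The 10 pericyte and smooth muscle genes, led by Acta2, Rgs5 and Notch3, had summed levels of 50.2, 55.4 and 68.8% of the F mean in 2+3d-C, and 8.42, 100 and 114% in 5d-U, where Acta2 gave most of the sum. The 2+3d-C mean was 653% of the F mean for Notch3, but 14.7% for Rgs5, 14.2% for Pdgfrb and 30.6% for Myh11. The defining markers of this list, Rgs5, Pdgfrb and Myh11, had 0 reads in 2d-U and a higher RPKM in every compressed than in every uncompressed library. For Pdgfrb the margin was small, with 0.573 RPKM (26 reads) in 2+3d-C replicate 5 against 0.389 RPKM (49 reads) in 5d-U replicate 1. The 6 glial genes, led by Mbp, Ncam1 and Sox10, were at 60.8, 107.5 and 81.6% of the F mean in 2+3d-C and at 14.7 to 24.7% in the uncompressed libraries. Mbp and Ncam1 gave most of the sum in 2+3d-C, and Ncam1 averaged 12.8 RPKM in F and 13.2 in 2d-U. The markers Sox10, S100b and Cdh19 had 0 reads in 2d-U. In 2+3d-C replicates 4, 5 and 10, Sox10 had 1057, 9 and 3 reads, S100b 118, 7 and 0, and Cdh19 115, 6 and 0. The 10 fibroadipogenic genes, led by Gsn, Dcn and Ly6a, were at 14.2, 14.9 and 23.5% in 2+3d-C, where Gsn gave most of the sum. Their defining marker Pdgfra had 454, 2 and 2 reads in 2+3d-C replicates 4, 5 and 10. The 7 adipocyte genes, led by Cd36, Lpl and Pparg, were at 11.2, 11.97 and 11.7% in 2+3d-C, but Cd36 is also on the wider endothelial list and gave 82.9 to 91.0% of this sum in F and 60.9 to 72.9% in 2+3d-C. Without Cd36 the other 6 adipocyte genes were at 25.4, 39.2 and 36.9% in 2+3d-C, against 18.2, 23.2 and 25.8% in 5d-U, so that the groups overlapped. The defining adipocyte markers Adipoq, Plin1, Cidec and Retn had at most 3 reads in each 2+3d-C library. The 8 myofiber genes, led by Acta1, Mylpf and Tnnt3, were at 2.10, 186 and 112% in F replicates 1, 4 and 5, and at 5.24, 16.01 and 4.504% in 2+3d-C. In 5d-U they were at 12.2, 154.5 and 290%, so this list did not follow the endothelial genes. In all 3 F libraries the defining endothelial markers Pecam1, Cdh5 and Kdr were present next to those of pericytes, fibroadipogenic cells, immune cells and glia. The 10 MuSC genes, led by Myod1, Sdc4 and Vcam1, were at 368, 427 and 356% of the F mean in 2+3d-C and at 55.6 to 95.2% in the uncompressed libraries, so their sum did not follow that of the endothelial genes. Myod1 and Sdc4 together gave most of this sum in 2+3d-C. Single genes differed, and 4 of the 10, Vcam1, Sdc4, Calcr and Chodl, were higher in every F and every 2+3d-C library than in every uncompressed library.

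**Figure D4:**
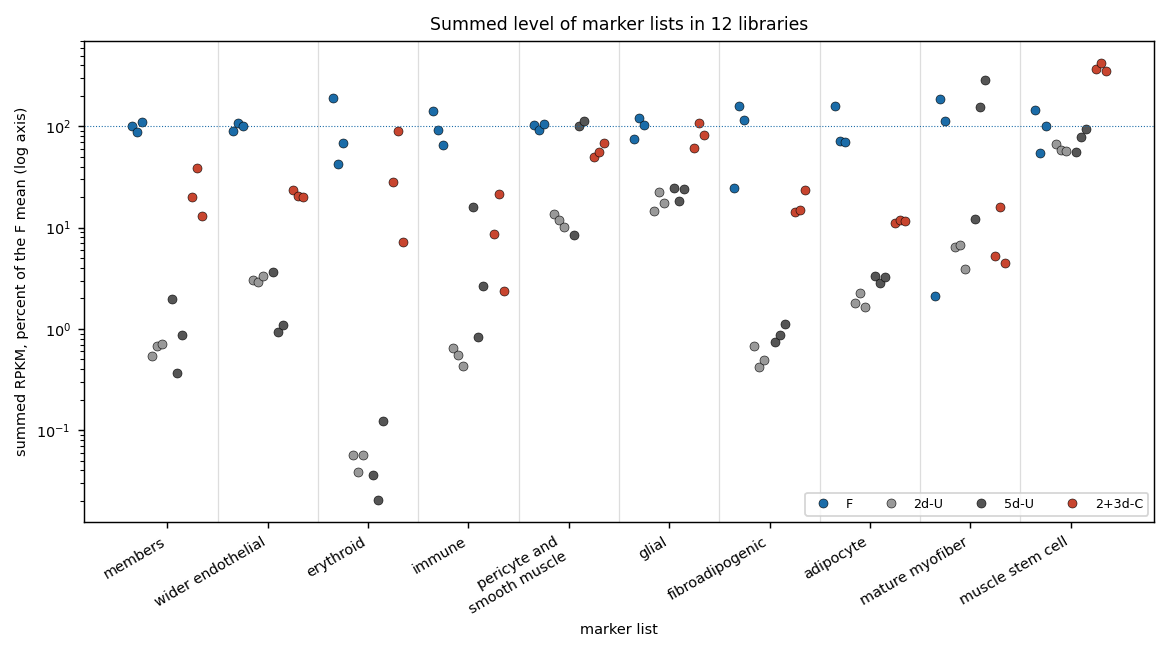
Summed RPKM of the marker lists in each of the 12 libraries as a percent of the mean of the 3 F libraries, on a log axis, with 1 point per library. The compressed libraries lie above all uncompressed libraries for the members (12.9% and more against at most 1.99%), the wider endothelial, erythroid, glial, fibroadipogenic, adipocyte and MuSC lists, and overlap with 5d-U for the immune, pericyte and myofiber lists.

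By the count of single genes, every F library was above every uncompressed library for 20.6% of all tested genes. The same held for 10 of 10 immune, 10 of 10 fibroadipogenic, 6 of 6 erythroid, 8 of 10 pericyte and 5 of 6 glial genes. It also held for 4 of 10 MuSC, 2 of 7 adipocyte and 2 of 8 myofiber genes. Every compressed library was above every uncompressed library for 11.1% of all tested genes. Of the lists, these were 5 of 6 erythroid, 6 of 10 pericyte, 5 of 10 fibroadipogenic, 1 of 6 glial and 0 of 10 immune genes. They were also 6 of 10 MuSC, 2 of 7 adipocyte and 1 of 8 myofiber genes.

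The tested genes whose pattern was most like that of the members over the 12 libraries were found from log2 CPM, centred on each gene's mean and scaled to unit SD, as the mean absolute difference from the average of the members. The 10 closest were Lbp (0.0863 SD), Slc1a1 (0.109), Cd300lg (0.110), Cxcl9 (0.112), Iigp1 (0.115), Slfn5 (0.116), Procr (0.120), Lrg1 (0.120), Fmo2 (0.121) and Trim30a (0.124). Cd300lg is on the wider endothelial list, Procr is the receptor of protein C, and Cxcl9 and Iigp1 are genes induced by interferon. By the same measure, Sox17 (0.111) ranked 4 among all tested genes, Fabp4 (0.132) 15 and Esam (0.147) 22, while Pecam1 (0.271) ranked 254 and Egfl7 (0.341) 578, so genes outside the list followed the average more closely than most members did.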

How the data were processed

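RNA was reverse transcribed and amplified with the SMART-seq v4 kit, and 12 libraries were sequenced from 1 end. The authors aligned reads to mm10 and deposited read counts per gene, made with featureCounts over GENCODE vM23 exons and blind to strand. The deposited counts are whole numbers without normalization. The members and gene lists were chosen with earlier results of these data known.

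For the comparisons, edgeR 4.0.16 (R 4.3.3) was run on the 22635 genes that passed filterByExpr, with TMM factors and a single quasi-likelihood model of the 4 groups over the 12 libraries. An SE is the log2 fold change divided by the square root of its F statistic. Tests were two-sided with Benjamini-Hochberg adjustment. With 12540745 to 62424851 reads per library, 3 reads were taken as the floor for folds against groups with 3 or fewer reads in each library. Such limits cover counting error only. The procedure was tested on simulated data. Named were all members, of the wider list the 6 with the highest mean RPKM and the 3 with the smallest p in F and in 2+3d-C against 5d-U, of each other list the 3 with the highest mean RPKM and defining markers at 0 reads in a group, and the 10 genes most like the members. Alternatives were DESeq2 1.42.0, no TMM, no filter, the replicate number as a block, subtraction of reads expected from silent gene families, each library left out in turn, and, added after the data were seen, a term in the model that marks 4 libraries above 0.5 silent-family reads per kb. Of the marker lists, 2 genes are not reported here.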

Additional observations from a re-analysis of the deposited data

How the results depend on the processing

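In the 5 comparisons other than 5d-U against 2d-U, no member's log2 fold change turned its direction under the alternatives. In 5d-U against 2d-U, that of 5 members (Cdh5, Cldn5, Esam, Pecam1 and Egfl7, none of them called there) did so under at least 1. Over all 6 comparisons, 990 of 1080 such values stayed within 1 SE. The fall of the members in 2+3d-C against F (2 of 10) was called for 4 with DESeq2, 8 without a filter on low counts, and 0 with the model term for silent-family reads (3 at an unadjusted p under 0.05). That of the wider list (6 of 40) was called for 19 with DESeq2, 24 without a filter and 0 with the model term (12 at an unadjusted p under 0.05). The rise in 5d-U against 2d-U (2 members) was called for 1 without TMM, 4 without a filter, 0 with silent-family reads subtracted (3 at an unadjusted p under 0.05) and 0 with the model term (2 at an unadjusted p under 0.05). For the wider list (6 genes) it was called for 13 with DESeq2, 3 without TMM, 14 without a filter, 2 with subtraction and 0 with the model term (11 higher and 3 lower at an unadjusted p under 0.05). The cause of these changes was not tested. The share of all genes called under each alternative is not given. The counts under the alternatives are therefore not read as a result about either list. With each library left out in turn, members called were 10 to 10 in F against 2d-U, 9 to 10 in F against 5d-U, 0 to 5 in 2+3d-C against F, 6 to 9 against 5d-U, 9 to 10 against 2d-U, and 1 to 3 in 5d-U against 2d-U. For the wider list these ranges were 36 to 39, 27 to 36, 0 to 19, 18 to 30, 30 to 32 and 2 to 12. The mean share of the summed F level in 2+3d-C, 23.95%, was 16.18% without TMM, 20.92% with subtraction and 26.12% without Fabp4. Scaling without TMM moved the median log2 fold change of all genes by -0.48 in 2+3d-C against F and by -0.16 against 5d-U.

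The sources do not say whether a replicate number marks a shared batch, and groups share at most 2 numbers. The paper states that cells of each sorted batch were assigned to the conditions at random. The deviations of same-numbered libraries correlated at r = 0.032 and -0.149 (F and 2+3d-C), -0.026 and -0.053 (2d-U and 5d-U), 0.021 (F and 2d-U) and -0.424 (F and 5d-U). The deviations of a group sum to 0 for each gene, so these values cannot decide whether the numbers mark pairs. In the main fit the numbers were not used. With a replicate block, which leaves 2 residual degrees of freedom in place of 8, members called were 7 in 2+3d-C against F, 3 against 5d-U and 4 against 2d-U, and wider-list genes 23, 8 and 16, with 12 in 5d-U against 2d-U.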
